A study of Mus musculus with 12 samples.

Results

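The RNA-binding protein SLM2 had 45 of its 2057 whole-brain eCLIP peaks in 7 mouse genes that set or tune potassium and HCN currents. These were the potassium channel subunit genes *Kcnh7*, *Kcnq5*, *Kcnb2*, *Kcnc1*, *Kcnc2* and *Kcnj3*, and *Pex5l*, whose product is a partner of HCN channels. The 7 genes, of 21951 annotated protein-coding genes, were chosen by the measured whole-brain peaks themselves, since each holds at least 1, and *Pex5l* also because it holds the peak with the highest log2 fold change of that list. A peak was assigned to a gene when its centre lay inside the gene span on the gene's own strand. Of the 178 hippocampal peaks, 2 lay in these genes, both in *Pex5l*.

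The study measured SLM2-bound RNA by eCLIP, in which RNA is cross-linked to protein by ultraviolet light, precipitated with an antibody and sequenced, and compared with a size-matched input taken from the same lysate. The 12 libraries came from mice aged 30 days: wild-type (WT) whole brain, WT hippocampus and *Slm2* KO hippocampus, each with 2 eCLIP and 2 input libraries. The *Slm2* KO libraries were not analysed here. Each WT tissue had 1 deposited peak list in which the replicates had already been merged, so no value per library, no spread between replicates and no sequencing depth could be given, and the lists hold no expression level against which the tissue labels could be checked.

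SLM2, encoded by *Khdrbs3*, belongs to the STAR family of RNA-binding proteins, is found in the nuclei of neurons, and is known for regulating alternative splicing of pre-mRNAs that encode synaptic proteins, the neurexins among them. Proteins of this family bind short AU-rich elements, and the tetramer UWAA, where W is U or A, is the element described for SLM2. Potassium channels are assembled from pore-forming subunits of several families, which differ in how they open with voltage or with G proteins, while HCN channels carry the hyperpolarization-activated cation current that shapes dendritic integration.

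The sequences below show what lay under the peaks, as DNA letters of the GRCm38 genome on the strand of the gene, with every UWAA (TTAA or TAAA) in capitals. The first group holds the peak with the highest log2 fold change of each channel gene and, for *Kcnh7*, also the lowest, so that strong and weak peaks of 1 gene can be set side by side.
Kcnh7 peak 3 (chr2:63116081-63116162, minus strand): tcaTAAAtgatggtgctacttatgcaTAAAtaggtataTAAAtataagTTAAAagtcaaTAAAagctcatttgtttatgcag
Kcnh7 peak 6 (chr2:63035670-63035808, minus strand): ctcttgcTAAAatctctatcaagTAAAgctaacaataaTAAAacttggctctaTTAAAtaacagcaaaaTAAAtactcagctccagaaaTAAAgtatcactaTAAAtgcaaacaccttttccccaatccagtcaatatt
Kcnq5 peak 7 (chr1:21852643-21852812, minus strand): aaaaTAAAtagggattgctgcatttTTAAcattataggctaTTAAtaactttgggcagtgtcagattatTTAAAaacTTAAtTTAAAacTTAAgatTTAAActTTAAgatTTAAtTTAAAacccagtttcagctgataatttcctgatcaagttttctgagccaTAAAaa
Kcnb2 peak 2 (chr1:15470780-15470928, plus strand): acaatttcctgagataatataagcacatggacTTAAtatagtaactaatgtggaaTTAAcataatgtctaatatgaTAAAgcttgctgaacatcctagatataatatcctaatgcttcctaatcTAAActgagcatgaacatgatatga
Kcnc1 peak 1 (chr7:46407152-46407260, plus strand): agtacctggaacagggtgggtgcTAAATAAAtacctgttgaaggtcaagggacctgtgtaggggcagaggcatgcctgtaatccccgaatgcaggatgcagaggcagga
Kcnc2 peak 1 (chr10:112330522-112330656, plus strand): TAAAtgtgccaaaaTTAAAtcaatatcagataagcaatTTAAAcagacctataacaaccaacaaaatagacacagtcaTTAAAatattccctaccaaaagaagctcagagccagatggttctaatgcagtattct
Kcnj3 peak 1 (chr2:55557886-55557993, plus strand): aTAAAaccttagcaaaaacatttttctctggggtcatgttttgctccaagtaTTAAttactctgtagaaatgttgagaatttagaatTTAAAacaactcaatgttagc

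UWAA was densest in the *Kcnq5* peak, where 16 overlapping or separate copies covered 52 of 170 letters (30.6%), and sparsest in the *Kcnc1* peak, where 2 adjoining copies covered 8 of 109 letters (7.34%). In *Kcnh7* the strongest peak held 6 copies covering 25.6% of its 82 letters and the weakest 8 copies covering 20.9% of its 139 letters.

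The second group holds all 13 whole-brain peaks of *Pex5l*, numbered along the transcript, because the strongest binding was found there and because 3 of them were met again in the hippocampus.
Pex5l peak 1 (chr3:33134915-33134999, minus strand): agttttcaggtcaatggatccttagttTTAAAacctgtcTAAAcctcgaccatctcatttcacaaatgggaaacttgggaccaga
Pex5l peak 2 (chr3:33131511-33131650, minus strand): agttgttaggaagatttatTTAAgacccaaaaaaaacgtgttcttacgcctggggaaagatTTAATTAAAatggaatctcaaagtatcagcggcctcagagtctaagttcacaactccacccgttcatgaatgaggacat
Pex5l peak 3 (chr3:33127566-33127636, minus strand): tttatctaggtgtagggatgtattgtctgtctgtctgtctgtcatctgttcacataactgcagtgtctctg
Pex5l peak 4 (chr3:33127019-33127093, minus strand): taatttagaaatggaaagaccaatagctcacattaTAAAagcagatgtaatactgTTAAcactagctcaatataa
Pex5l peak 5 (chr3:33126817-33126950, minus strand): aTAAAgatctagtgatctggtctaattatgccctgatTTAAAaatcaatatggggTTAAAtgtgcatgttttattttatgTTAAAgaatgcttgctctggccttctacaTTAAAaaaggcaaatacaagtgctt
Pex5l peak 6 (chr3:33126622-33126743, minus strand): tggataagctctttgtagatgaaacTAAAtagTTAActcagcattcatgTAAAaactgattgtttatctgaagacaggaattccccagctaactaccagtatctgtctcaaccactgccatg
Pex5l peak 7 (chr3:33125214-33125373, minus strand): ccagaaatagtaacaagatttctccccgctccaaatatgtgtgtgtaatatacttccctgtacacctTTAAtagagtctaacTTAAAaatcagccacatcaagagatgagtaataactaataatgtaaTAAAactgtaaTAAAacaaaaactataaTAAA
Pex5l peak 8 (chr3:33125067-33125212, minus strand): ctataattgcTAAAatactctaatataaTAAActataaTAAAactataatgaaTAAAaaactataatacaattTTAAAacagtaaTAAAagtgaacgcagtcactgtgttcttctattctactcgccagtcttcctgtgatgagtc
Pex5l peak 9 (chr3:33124471-33124759, minus strand): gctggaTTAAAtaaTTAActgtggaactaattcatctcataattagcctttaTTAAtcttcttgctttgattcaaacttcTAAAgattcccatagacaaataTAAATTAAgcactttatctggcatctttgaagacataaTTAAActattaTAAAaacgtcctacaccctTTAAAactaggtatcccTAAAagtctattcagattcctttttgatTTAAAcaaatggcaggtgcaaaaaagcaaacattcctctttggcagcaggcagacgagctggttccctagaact
Pex5l peak 10 (chr3:33120815-33121051, minus strand): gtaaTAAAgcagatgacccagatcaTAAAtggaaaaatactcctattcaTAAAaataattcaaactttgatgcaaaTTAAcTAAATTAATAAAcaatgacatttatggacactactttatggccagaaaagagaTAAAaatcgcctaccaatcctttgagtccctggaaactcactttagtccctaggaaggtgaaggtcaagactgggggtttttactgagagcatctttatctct
Pex5l peak 11 (chr3:33050763-33050863, minus strand): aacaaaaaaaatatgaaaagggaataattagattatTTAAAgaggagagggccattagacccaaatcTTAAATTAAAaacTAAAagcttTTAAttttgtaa
Pex5l peak 12 (chr3:33050690-33050761, minus strand): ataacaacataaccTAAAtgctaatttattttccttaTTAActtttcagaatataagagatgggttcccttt
Pex5l peak 13 (chr3:32982044-32982117, minus strand): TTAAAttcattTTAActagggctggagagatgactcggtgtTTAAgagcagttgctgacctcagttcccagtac

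Peaks 7 and 8 of *Pex5l* adjoin, with 1 base between them, and the 9-mer UAUAAUAAA occurred 1 time in peak 7 and 2 times in peak 8. That 9-mer, noticed on reading these sequences, was found on the strand of the transcript in 23 of the 2057 whole-brain peaks (1.12%). Peak 9 held 15 copies of UWAA over 289 nt, and peak 3, with a run of TCTG repeats in its middle, held none.

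By the log2 fold change, *Pex5l* held the strongest SLM2 peak of the 7 genes. *Pex5l* encodes TRIP8b, an auxiliary subunit that binds HCN channels and controls their trafficking and gating, and that neurons make in several forms with different N-terminal exons. The gene spans chr3:32949408-33143247 on the minus strand (193.8 kb). Its 13 whole-brain peaks had log2 fold changes over input between 2.50 and 6.04 with a median of 3.13, and 8 of them were at 3 or above. These fold changes are the authors' own, eCLIP over input, and the list was limited to values of at least 2.

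Peak 8 of *Pex5l* (146 nt) had a log2 fold change of 6.04, the highest of the 2057 whole-brain peaks, and a −log10 p of 39.1, the fourth highest. Its neighbour, peak 7 (160 nt), had a log2 fold change of 4.08 and a −log10 p of 22.1. Peak 9 (289 nt), 308 nt further along, had a log2 fold change of 3.92 and a −log10 p of 19.8. These 3 peaks stood apart from the other 10 of the gene, whose −log10 p lay between 3.13 and 8.90. The choice of *Pex5l* rests on the log2 fold change of peak 8, which is therefore given as a description and was not tested.

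Binding in *Pex5l* was concentrated near the start of the gene. The first 10 peaks lay within 14.2 kb (chr3:33120815-33134999), 8.29 to 22.3 kb from the gene start, a stretch that makes up 7.32% of the gene span. Of the 13 peaks, 12 lay in the first intron (127.8 kb) of Pex5l-206, the protein-coding transcript with the longest span. Of the 9 annotated protein-coding transcripts of the gene, Pex5l-206 was the only one whose span held peaks 1 to 10, while 8 of the 9 held peaks 11 and 12. Peaks 11 and 12, again with 1 base between them, had log2 fold changes of 3.13 and 3.49 at 92.4 and 92.5 kb from the gene start. Peak 13 lay in the sixth intron with a log2 fold change of 3.35. The centre of peak 2 fell in an exon of the non-coding transcript Pex5l-207 (chr3:33131566-33131995), inside the same first intron. Peaks 11 and 12 lay opposite the antisense gene *4930419G24Rik* and peak 13 opposite the antisense gene *Gm37459*. All 3 were called on the strand of *Pex5l*.

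**Figure D1:**
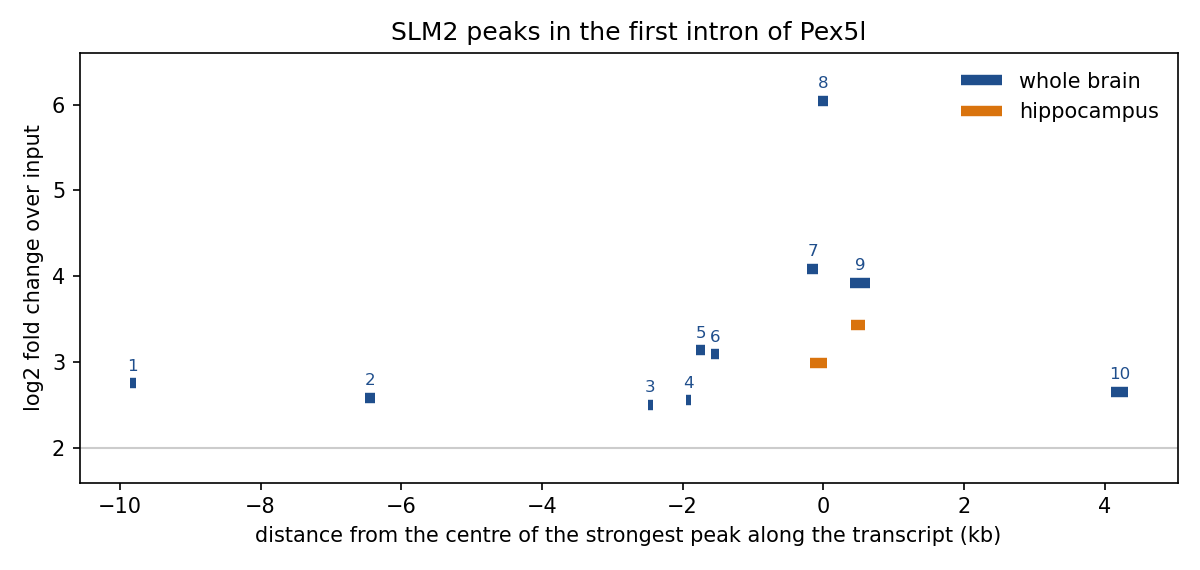
The log2 fold change over input (vertical axis) of the 10 whole-brain peaks (blue, numbered) and the 2 hippocampal peaks (orange) near the start of *Pex5l*, against the distance in kb from the centre of peak 8, with bar width as peak length and the grey line at the authors' minimum of 2. The hippocampal peaks sit over peaks 7, 8 and 9, the 3 highest whole-brain peaks of the gene.

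The 2 hippocampal peaks of *Pex5l* fell on its strongest whole-brain sites. The first (chr3:33125093-33125324, 232 nt) shared 111 nt with peak 7 and 120 nt with peak 8, and had a log2 fold change of 2.99 and a −log10 p of 2.14. The second (chr3:33124547-33124751, 205 nt) lay wholly within peak 9, covering 70.9% of it, with a log2 fold change of 3.43 and a −log10 p of 3.14. In the hippocampal list these fold changes ranked 35 and 19 of 178. The tissues were called separately, so the fold changes of the 2 lists are given side by side and were not tested against each other.

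No hippocampal peak was called in *Kcnh7*, *Kcnq5*, *Kcnb2*, *Kcnc1*, *Kcnc2* or *Kcnj3*. Over all genes, 0.378% of protein-coding genes held a hippocampal peak and 1.92% a whole-brain peak, so the hippocampal list was much the shorter. In bulk tissue, fewer cells with a transcript and less RNA per cell cannot be told apart, and a gene without a peak is not shown to be unbound.

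*Kcnh7* held the most peaks of the 7 genes. It encodes a voltage-gated subunit of the ERG family, whose currents dampen firing, and spans chr2:62693414-63184287 on the minus strand (490.9 kb). Its 14 whole-brain peaks ranked the gene 31 among the 434 genes that hold at least 1 whole-brain peak, and their log2 fold changes ran from 2.04 to 3.92 with a median of 2.44. Peaks 2 and 3, 52 nt apart at 68.0 and 68.2 kb from the gene start, were the strongest, with log2 fold changes of 3.63 and 3.92. Peak 1, at 12.6 kb, had 3.30, and the other 11 lay between 2.04 and 2.85. Of the 14 peaks, 12 were in the second intron (304.7 kb, 62.1% of the gene span), between 10.4 and 173 kb into it, and 6 of these fell within 20 kb. Peak 6, with a log2 fold change of 2.04, was the weakest of all 45 peaks by that measure and the nearest to the minimum of 2.

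Peaks 13 and 14 of *Kcnh7* lay in the fifth and seventh introns with log2 fold changes of 2.39 and 2.45. Peak 14 was 225 nt downstream of an exon of the transcript Kcnh7-203. In the RefSeq annotation the nearest exon to it was 1534 nt away.

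*Kcnq5* encodes a KCNQ subunit, a family that carries the M current, a slow potassium current switched off by muscarinic receptors. It spans chr1:21398403-21961942 on the minus strand (563.5 kb). All 11 of its whole-brain peaks lay in the first intron (367.6 kb), spread over 296.9 kb, and their log2 fold changes ran from 2.37 to 4.24 with a median of 2.77. Peak 7 (170 nt, 109.2 kb from the gene start) was the strongest at 4.24, which ranked it 27 of 2057. Peak 4 followed with a log2 fold change of 3.81 and peak 11 with 3.79. Peak 8 of *Kcnq5* also lay inside *Gm38243*, an unclassified annotated gene on the same strand, and the transcript bound there cannot be told apart.

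The remaining channel genes held 1 to 3 peaks each. *Kcnb2* encodes a delayed rectifier subunit of the Kv2 family. It spans chr1:15287254-15723750 on the plus strand (436.5 kb) and had 2 peaks, with log2 fold changes of 2.22 and 2.53, in its second intron of 396.5 kb. *Kcnc1* and *Kcnc2* encode Kv3 subunits, the rapidly deactivating channels that let interneurons fire at high rates. *Kcnc1* (chr7:46396497-46438704, plus strand, 42.2 kb), the shortest of the 7 genes, had 1 peak with a log2 fold change of 3.12 in its first intron. *Kcnc2* (chr10:112271121-112467024, plus strand, 195.9 kb) had 3 peaks, with log2 fold changes of 2.45, 2.27 and 2.42. The first of these and the second lay 432 nt apart in the second intron, and the third lay in the fourth intron, 685 nt upstream of an exon. *Kcnj3*, which encodes a G protein-gated inward rectifier subunit, spans chr2:55435970-55598145 on the plus strand (162.2 kb) and had 1 peak with a log2 fold change of 2.88 in the third intron. None of the *Kcnb2* and *Kcnc2* peaks reached a log2 fold change of 2.56, the median of all whole-brain peaks, whereas the *Kcnc1* and *Kcnj3* peaks lay above it.

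**Figure D2:**
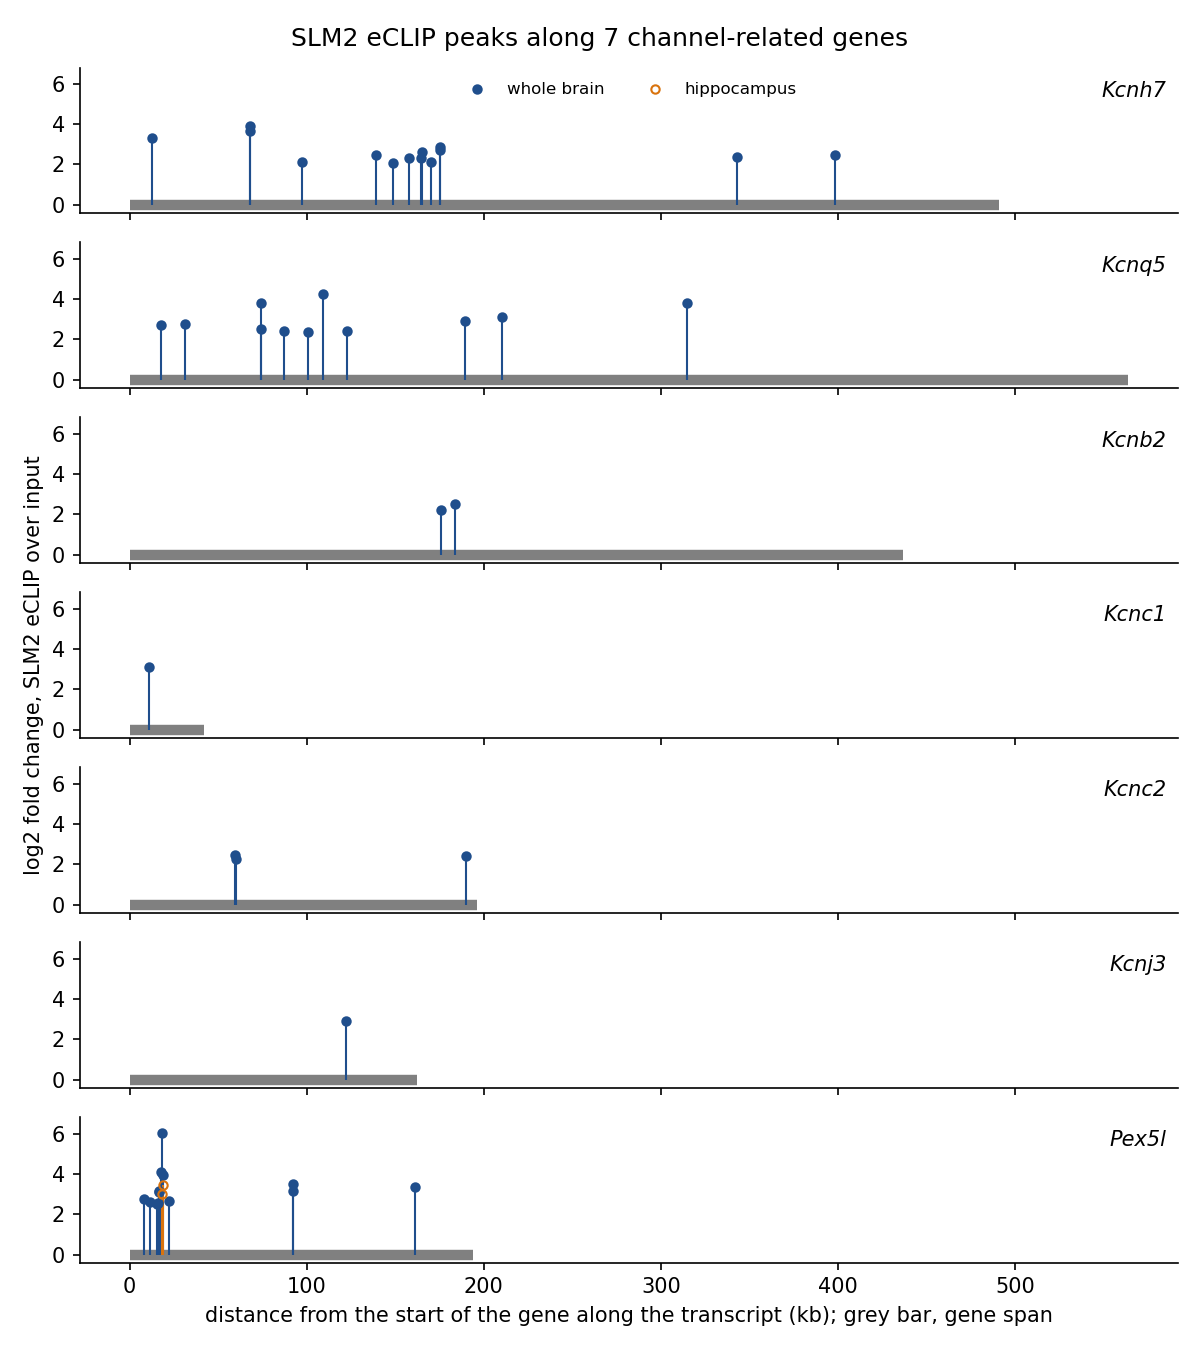
Every peak of the 7 genes at its distance in kb from the gene start (horizontal axis, grey bar as the gene span), with its height as the log2 fold change over input. Filled circles are whole-brain peaks and open circles hippocampal peaks. The *Pex5l* peaks crowd near the gene start, while those of *Kcnh7* and *Kcnq5* spread widely over a long intron.

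Per length of gene, *Pex5l* carried 6.71 whole-brain peaks per 100 kb, against 2.85 in *Kcnh7* and 1.95 in *Kcnq5*. Among the 77 genes with at least 5 whole-brain peaks these ranked 16, 39 and 47. Adjoining peaks may be 1 site: with peaks less than 10 nt apart counted as 1, the 45 peaks made 42 sites, and 19 of the 45 peaks lay within 1 kb of another peak of the gene.

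Taking the 45 whole-brain peaks of the 7 genes as a set, their median log2 fold change was 2.68, against 2.56 over all 2057 peaks, and 16 of 45 (35.6%) reached 3, against 464 of 2057 (22.6%). *Pex5l* provided 8 of the 16, and without it the median was 2.53. The median −log10 p was 4.22 in the 7 genes and 4.32 over all peaks, and the median peak length was 118 and 106 nt. The lists were limited by the log2 fold change, so these are descriptions of the peaks that passed.

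**Figure D3:**
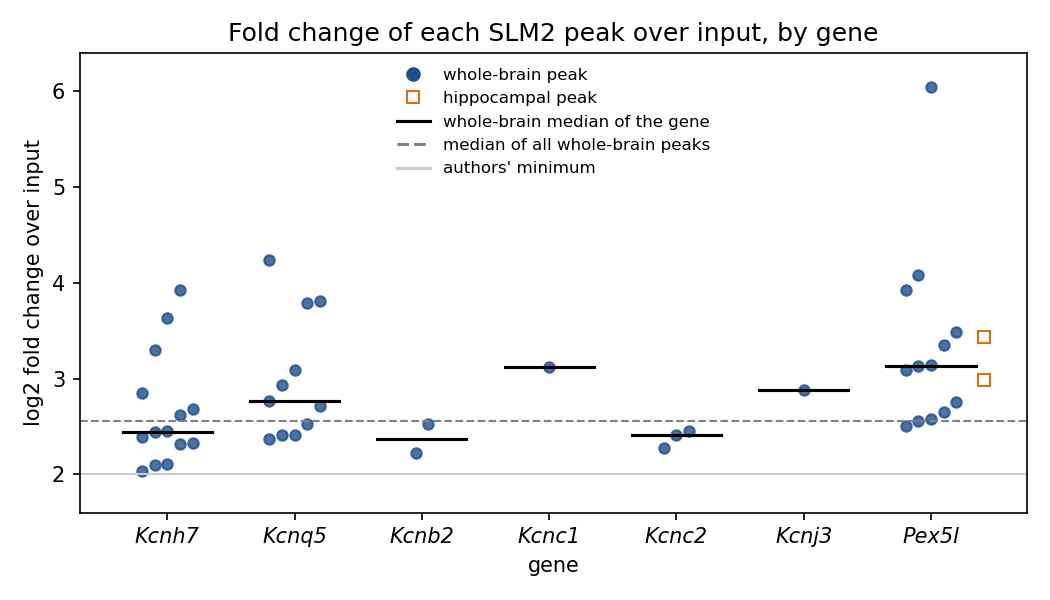
The log2 fold change over input of each peak, by gene, with whole-brain peaks as filled circles, hippocampal peaks as open squares, the black line as the whole-brain median of the gene, the dashed line as the median of all 2057 whole-brain peaks (2.56) and the pale line as the authors' minimum of 2. One *Pex5l* peak stands at 6.04, above every other peak.

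Most peaks of these genes lay in introns, as did most of the whole list. Of the 45 whole-brain peaks, 44 had their centre in an intron of their own gene. With exons of any gene on the strand counted, as for the whole list, it was 43 of 45 (95.6%), against 1948 of 2057 (94.7%). The median distance to the nearest exon was 18621 nt, against 22539 nt over all peaks. More than 10 kb from any exon lay 27 of 45 (60%), against 1291 of 2057 (62.8%). These distances depend on the exon set, here GENCODE. Peak 5 of *Kcnq5*, at 18621 nt from its nearest exon, was 86546 nt from the nearest in RefSeq. Some distances were shorter in RefSeq, as for peak 11 of *Kcnq5* with 38955 nt, against 53522 nt in GENCODE. RefSeq distances were not compared with the whole list. The intron with the most peaks of each gene held 41 of the 45, and it made up from 62.1% of the gene span in *Kcnh7* to 93.5% in *Kcnc2*.

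Within 500 nt of an exon of their own gene lay 2 of the 45 peaks, peak 2 of *Pex5l* and peak 14 of *Kcnh7*. With exons of any gene on the strand it was 3 of 45 (6.67%), against 225 of 2057 (10.9%). An annotated cassette exon is an internal exon that lies inside an intron of another transcript of the gene. *Kcnb2* and *Kcnc1* have none, and of the 42 peaks in the other 5 genes 0 lay within 500 nt of one, against 36 of 1728 (2.08%) over all peaks in genes with such an exon. The nearest, of 99 nt, was 1113 nt downstream of peak 8 of *Kcnq5*. With exons of RefSeq in place of GENCODE, none of the 45 lay within 500 nt of an exon of its gene, which leaves the *Pex5l* and *Kcnh7* peaks near exons dependent on the annotation.

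UWAA was more frequent at the peaks than beside them. Starts of UWAA were counted in the 101 nt around each peak centre and in flanking windows of the same length 450 to 550 nt to each side. At the 45 peaks there were 5.01 ± 2.52 UWAA per 100 positions (SD over peaks) and in their flanks 2.11 ± 1.29. The pooled exact 95% binomial intervals, which cover counting error only, were 4.39 to 5.70 at the peaks and 1.82 to 2.43 in the flanks. These intervals treat positions as independent, although UWAA copies and the windows of adjoining peaks can overlap, so they may be too narrow. The density was higher at the peak than in its flanks for 40 of 45 peaks (88.9%), lower for 3 and equal for peak 2 of *Kcnc2* and peak 2 of *Pex5l*. It was higher at 1367 of 2057 peaks (66.5%) in the whole list, whose means were 3.59 at peaks and 1.80 in flanks.

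The gene means placed the peaks above the flanks in all 7 genes, and in 302 of the 434 genes (69.6%) of the whole list. In *Kcnq5* the mean was 5.94 UWAA per 100 positions at peaks and 1.86 in flanks. In *Kcnh7* it was 5.32 at peaks and 2.51 in flanks, and in *Pex5l* 4.71 at peaks and 1.77 in flanks. These 3 genes held 38 of the 45 peaks. The means were 4.08 at peaks and 2.30 in flanks for *Kcnb2*, and 3.74 and 3.06 for *Kcnc2*. For *Kcnj3* they were 3.06 at its peak and 2.55 in flanks, and for *Kcnc1* 2.04 and 0. In these last genes the difference rests on 1 to 3 windows per gene, and with windows of 25 nt to each side it was absent in *Kcnc1* and turned round in *Kcnc2* and *Kcnj3*, while with windows on the 5′ end of the peak it turned round in *Kcnb2*.

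**Figure D4:**
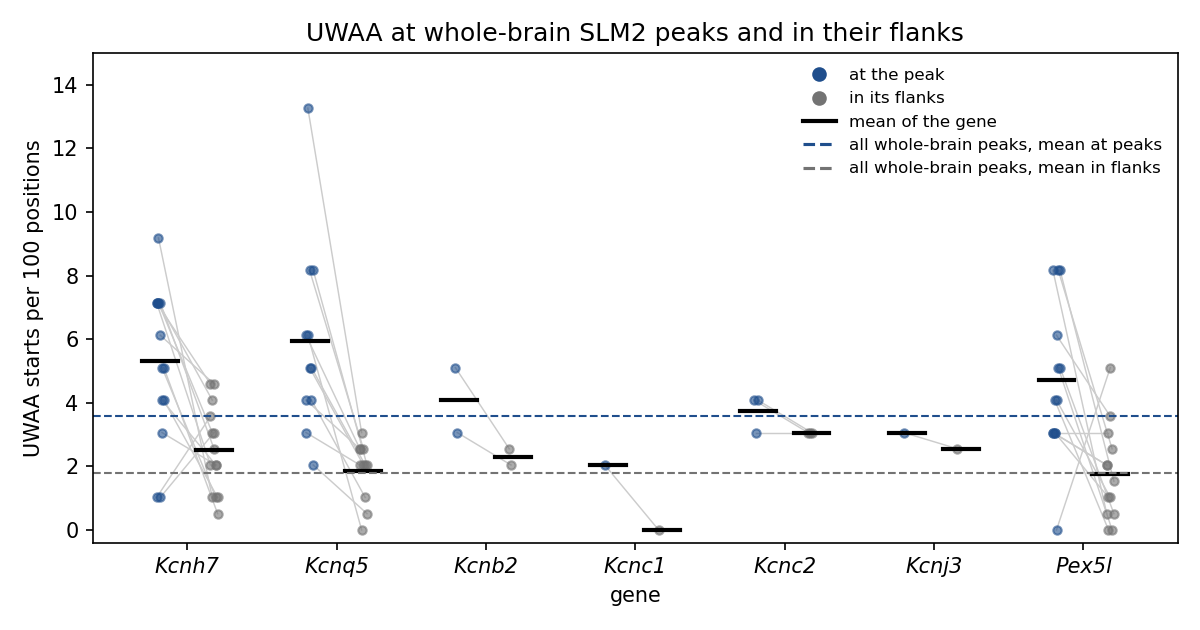
UWAA starts per 100 positions at each whole-brain peak (blue, left in each gene) and in its flanks (grey, right), joined by a line per peak, with black bars as gene means and dashed lines as the means of all 2057 peaks. Most lines slope down to the flanks; 3 slope upward, 2 in *Kcnh7* and 1 in *Pex5l*.

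The 3 peaks with less UWAA than their flanks were peaks 1 and 8 of *Kcnh7* and peak 3 of *Pex5l*. The windows of the *Kcnh7* peaks held 1 UWAA each, and that of the *Pex5l* peak, 62.4% of it masked as repeat, held none. At the other end, the window of peak 7 of *Kcnq5* held 13 UWAA (13.3 per 100 positions), a number reached by 0.0279% of all windows of that length in the gene. The 3 windows of *Pex5l* with 8 UWAA, at peaks 5, 9 and 11, reached a number found in 0.485% of the windows of the gene. Peak 8, the strongest, had 6 UWAA in its window, as had each hippocampal peak (6.12 per 100 positions, against 3.06 in flanks). A flank of each hippocampal peak overlapped the other, so this flank density includes peak sequence. The means over all 178 hippocampal peaks were 2.55 at peaks and 1.67 in flanks. Over the 45 peaks, UWAA density and log2 fold change had a Spearman correlation of 0.16, and over all 2057 peaks of 0.11; peaks of 1 gene share their transcript and their base composition, and both are given as descriptions.

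**Figure D5:**
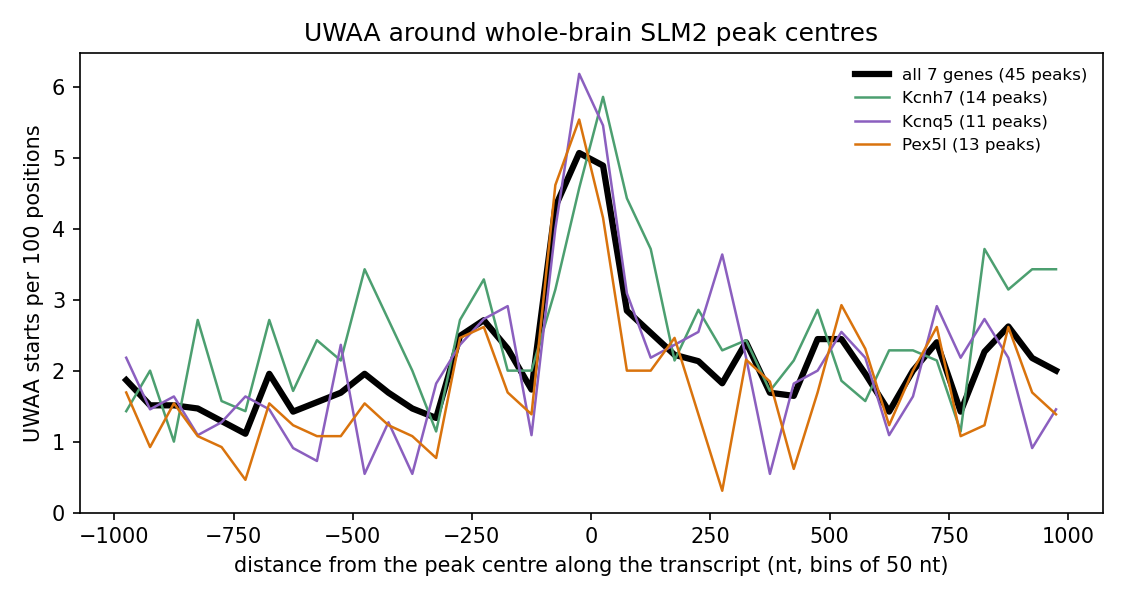
UWAA starts per 100 positions in bins of 50 nt along the transcript, from 1000 nt before to 1000 nt after the centre of whole-brain peaks, for all 7 genes (black) and for *Kcnh7*, *Kcnq5* and *Pex5l* (colours). The bins beside the centre hold 5.07 and 4.89 for all 7 genes.

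Base composition moved with the motif. A and U made up 69.1% of bases in the windows of the 45 peaks and 62.0% in their flanks, against 63.2% and 60.6% for all peaks. Among all 256 tetramers, UAAA had the greatest excess at the 45 peaks, with 2.99 per 100 positions at peaks, 2.72 times the density in flanks, and UUAA ranked 6 with 2.02 at peaks and 1.01 in flanks. Ranks 2 to 5 were all taken by other tetramers of A and U alone, the first of them AAAA with 3.20 per 100 positions at peaks and 1.87 in flanks. UUUU, by contrast, ranked 246 with 1.09 at peaks and 1.43 in flanks. The part of AU content in the excess of UWAA was not tested. UAAA and UUAA ranked 1 and 6 in the whole list too. More than 20% of the bases were repeat-masked in 28 of 45 peak windows (62.2%), against 1048 of 2057 (50.9%). In the 17 less masked peak windows the UWAA density was 5.04. It was 1.70 in their flanks, of which those with more than 20% masked bases were also left out.

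The longer element described for SLM2, a 7-mer, was counted in both its spellings. As UUUAAAA, or with A in the place of the last U as UUAAAAA, it was found in 15 of the 45 peak windows (33.3%), against 389 of 2057 (18.9%) in the whole list. It had 27 starts in the 45 peak windows (0.63 per 100 positions, exact 95% interval 0.42 to 0.92) and 15 in the flanking windows, which are double the length (0.18, interval 0.10 to 0.29). Like those for UWAA, both intervals cover counting error only and treat positions as independent, so they may be too narrow. Peak 7 of *Kcnq5* and peak 12 of *Kcnh7* had the most, 4 starts each. *Kcnc1* and *Kcnc2* had none at their peaks.

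Among 98 genes for potassium channel subunits, their accessory proteins and HCN channels with *Pex5l*, 12 (12.2%) held a whole-brain peak, the 7 genes above included, against 1.92% of all protein-coding genes. A larger share of long genes held a peak: of the 40 listed genes over 50 kb, 10 (25%) held one, against 7.35% of all protein-coding genes over 50 kb, and 3 (7.5%) held a hippocampal peak, against 1.36%. The list was put together with these peaks known and includes genes chosen for them, so nothing is read from the comparison. No whole-brain peak was called in the 8 Kv1 genes, the 14 two-pore-domain genes, the 8 calcium- and sodium-activated genes or the 4 HCN subunit genes. Each of the families of the 6 channel genes described above had 1 or 2 genes with a peak: 1 of 2 in Kv2, 2 of 4 in Kv3, 1 of 5 in KCNQ, 1 of 8 in EAG, ERG and ELK, and 1 of 15 in the inward rectifiers.

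The other 5 listed genes with a peak were mostly tied to Kv4 channels, which carry the A-type current. *Kcnip4*, a Kv4 accessory subunit, had 27 whole-brain and 5 hippocampal peaks, and *Kcnd2*, a Kv4 pore subunit, had 15 and 1. The −log10 p of the 5 hippocampal *Kcnip4* peaks lay between 0.75 and 1.81, and that of the *Kcnd2* peak was 2.16. The median of the hippocampal list was 1.75. The Kv4 auxiliary genes *Dpp6* and *Dpp10* had 3 and 1 whole-brain peaks and no hippocampal one. *Kcns2*, a silent Kv subunit, had 1 peak in each tissue, of 26 nt in whole brain and 29 nt in hippocampus, and both held at least 10 nt of the sequencing adaptor and no UWAA in their windows. None of the 45 peaks of the 7 genes held such an adaptor match, against 20 of 2057 in the whole list.

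By peaks per 100 kb in both tissues, the genes most like *Kcnh7*, among 421 protein-coding genes with a whole-brain peak, were *Gm29609*, *Mtss1* and *Hacd3*. All had 2.84 to 2.88 whole-brain peaks per 100 kb and no hippocampal one. Their whole-brain peaks numbered only 1, 4 and 1, against 14 in *Kcnh7*. The 3 most like *Pex5l* were *Gpm6a* with 9 whole-brain and 1 hippocampal peak, *Nrxn2* with 10 and 2, and *Cnksr2* with 15 and 1. *Nrxn2* encodes a neurexin. Likeness here is the distance between log2(1 + peaks per 100 kb) over 2 tissues, and says nothing of shared function.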

How the data were processed

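Per the labels and the study's methods, the authors used cutadapt 3.4 for trimming, STAR 2.7.9 for alignment (mm10), UMI-tools 1.1.1 for duplicate removal and CLIPper for peak calling, and then IDR to join replicates into 1 list per tissue. Each deposited list gives a log2 fold change of eCLIP over input, a −log10 p and a −log10 IDR per peak, all as the authors computed them. The lists have no column names, and the meaning of each column was inferred from the study's peak tables. The deposited BED score is a constant and was not used. Every listed value was at least 2 for log2 fold change and for −log10 IDR. The lowest −log10 p was 2.82 in the whole-brain list and 0.635 in the hippocampal list.

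Peaks were assigned by their centre and strand to GENCODE genes of GRCm38, and sequences were read from the RefSeq GRCm38 genome (Python 3.11.15, pandas 2.3.3, scipy 1.17.1). Introns are those of the protein-coding transcript with the longest span. No test across genes or conditions was made, since each tissue has 1 merged list. Motif counting was tested on simulated sequence of G and C with separate planted copies of UWAA. Overlapping copies and AU-rich sequence were not simulated.

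The 7 genes, the list of 98 genes and the alternatives were chosen with earlier results of these data known. Named are the 7 genes, other listed genes with a peak, and the 3 genes nearest to *Kcnh7* and to *Pex5l*. Sequences are the *Pex5l* peaks, the strongest and weakest of *Kcnh7* and the strongest of the others. Alternatives were stricter thresholds, other windows and flanks, other overlap rules and other exon sets.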

Additional observations from a re-analysis of the deposited data

How the results depend on the processing

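No paired analysis was possible because the replicates were merged before deposit, and for the same reason no replicate could be left out. Of the 45 whole-brain peaks, 16 remained when the log2 fold change had to reach 3 and 5 when the −log10 IDR had to. Those 5 were 4 in *Pex5l* and 1 in *Kcnh7*, so *Kcnq5* and *Kcnc1* kept none at that IDR. *Kcnb2*, *Kcnc2* and *Kcnj3* kept none under either limit. Of the 2 hippocampal peaks, 1 remained under each of these limits. Whole-peak, any-overlap and adaptor rules left both counts as they were. Of the 98 listed genes, 7 held a whole-brain peak with a log2 fold change of 3 or more, against 12. The count of peaks within 500 nt of an exon, 2, was 1 with exons of protein-coding transcripts and 0 with RefSeq exons, the last chosen after seeing the data. UWAA density at peaks, 5.01 per 100 positions, was 4.30 with windows of 100 nt to each side and 4.08 with windows on the 5′ end of the peak, and it was above the flanks in all 8 settings tried. The density of the 7-mer, 0.63 per 100 positions, was 0.37 with windows on the 5′ end. Leaving out *Pex5l*, or the 7 peaks whose flanks meet another peak, both chosen after seeing the data, gave UWAA densities of 5.13 and 5.16. Without *Pex5l* the median log2 fold change was 2.53. Depth is not in the lists, so a gene without a peak has no bound on its binding.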
